A study of Rattus norvegicus with 9 samples.

Results

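Cyclic AMP signalling was followed here through 43 genes whose products make, break down, bind or relay this second messenger: adenylyl cyclases, phosphodiesterases, subunits of protein kinase A, stimulatory G protein alpha subunits, transcription factors of the CREB family with a coactivator, exchange factors for the small GTPase Rap, an anchoring protein of protein kinase A and the beta-arrestins. The genes were taken from a list by symbol. A probe set on the array carried the symbol of 41 of the 43, out of 14506 genes named on the array. Adcy7 and Adcy9 were named by no single-symbol probe set, so their levels were not analysed here and they enter the search of promoters alone. Gnas and Prkacb had 2 probe sets each, and of these the one brightest on average across all 9 arrays was used. Probe sets present in at least 1 tissue were tested, which took in 40 of the 41 genes and left out Pde1c.

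The samples were hippocampus (HC), prefrontal cortex (PFC) and whole blood of 3 untreated male Wistar rats, numbered 2, 5 and 7, with 1 Rat Gene 1.0 ST array per tissue and rat. The methods give the rats as 6 weeks old with 1 further week of housing, and describe punches of the brain regions from frozen sections and blood drawn into a stabilizing tube. HC and PFC punches hold neurons, glia and vessels with the blood in them, so each value is an average over cell types. The methods describe 4 rats and the labels 6, whereas the arrays come from 3. Values are log2 RMA values (robust multi-array average, the summary of the probes of a probe set after quantile normalization), and all differences below are on the log2 scale, where 1 is a doubling. Numbers in parentheses after a difference are its standard error and the adjusted p from limma with n = 3 arrays per tissue.

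Cyclic AMP is made from ATP by adenylyl cyclases, which stimulatory G proteins switch on when a receptor binds its ligand, and it is hydrolysed by phosphodiesterases. Its best known targets are protein kinase A, in which regulatory subunits hold the catalytic subunits inactive until they bind cyclic AMP, and the Epac proteins, which activate Rap. The kinase phosphorylates CREB in the nucleus, and in neurons this route is known for its part in synaptic plasticity and memory. In blood, cyclic AMP is known to restrain the activation of platelets, T cells and phagocytes.

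The arrays matched their tissue labels by marker genes. All 10 neuron markers were higher in HC and PFC than in blood, and 6 of them were not above background in blood. All tested markers of red cells (9), platelets (5), T cells (10), B cells (4), neutrophils (9) and monocytes (8) were lower in brain than in blood. Background was taken from 1298 probe sets for receptors of smell, pheromones and taste, as their 95th percentile, which came to 4.88 in HC and 4.85 in PFC, against 5.53 in blood. The spread between arrays of a tissue was widest in blood, with a root mean square SD over 16884 tested probe sets of 0.113 in HC and 0.126 in PFC, against 0.308 in blood. A fit that pools the tissues thus makes the error too small for brain against blood and too large for HC against PFC. Counts from a fit weighted by tissue or from the brain arrays alone are given beside the pooled ones for that reason.

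Presence was more frequent in HC and PFC than in blood. A gene was called present where its 3 arrays averaged above 6.2, a cut-off taken from the methods. This held for 38 of 41 genes in HC and 38 in PFC, or 92.7% in each, against 58% and 58.2% of all named genes. In blood it held for 27 genes, or 65.9%, against 55.3% of all named genes. All 3 tissues shared 24 of the 41. Another 13 were present in HC and PFC and not in blood: Adcy2, Adcy5, Adcy8, Pde1a, Pde1b, Pde7b, Pde8a, Pde8b, Pde10a, Prkar1b, Gnal, Rapgef4 and Akap5. Adcy4 was present in blood alone, Pde3a in HC and blood, Pde4c in PFC and blood, and Pde1c in none. At a cut-off of 7.2 the count in blood was 15. Shares over all named genes were not taken for this count, for the 24 shared genes or for the 13. Below the background level in blood were 9 genes (Adcy8, Pde1a, Pde1b, Pde1c, Pde7b, Pde8a, Pde8b, Prkar1b and Akap5), and a difference from blood is only a limit for those. Each limit given below as at least is for the values as deposited and can be lower under another scaling of the arrays.

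Between brain and blood, 27 of the 40 tested genes were higher in brain (the mean of HC and PFC), 8 were lower and 5 were not called (Adcy6, Pde3b, Pde4d, Pde7a and Gnas). This is 67.5% higher and 20.0% lower, where 48.8% of all tested probe sets were higher and 37.4% lower. The median difference of the 40 genes was 1.38 and their range -1.80 to 5.30, against a median of 0.22 over all tested probe sets. A total of 26 genes differed by at least 1 and 14 by at least 2. With weights by tissue 25 genes were higher and 7 lower, where 45.5% and 34.1% of all probe sets were. The groups did not overlap for 32 genes. All 6 brain arrays lay above all 3 blood arrays for 25 of them (62.5%, against 44.8% of all probe sets) and below for 7 (17.5%, against 34.7%). In bulk tissue, fewer cells of a type and less RNA per cell cannot be told apart. Whole blood also differs from brain tissue in nearly all its cells, and what part cell makeup has in these differences was not tested.

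**Figure D1:**
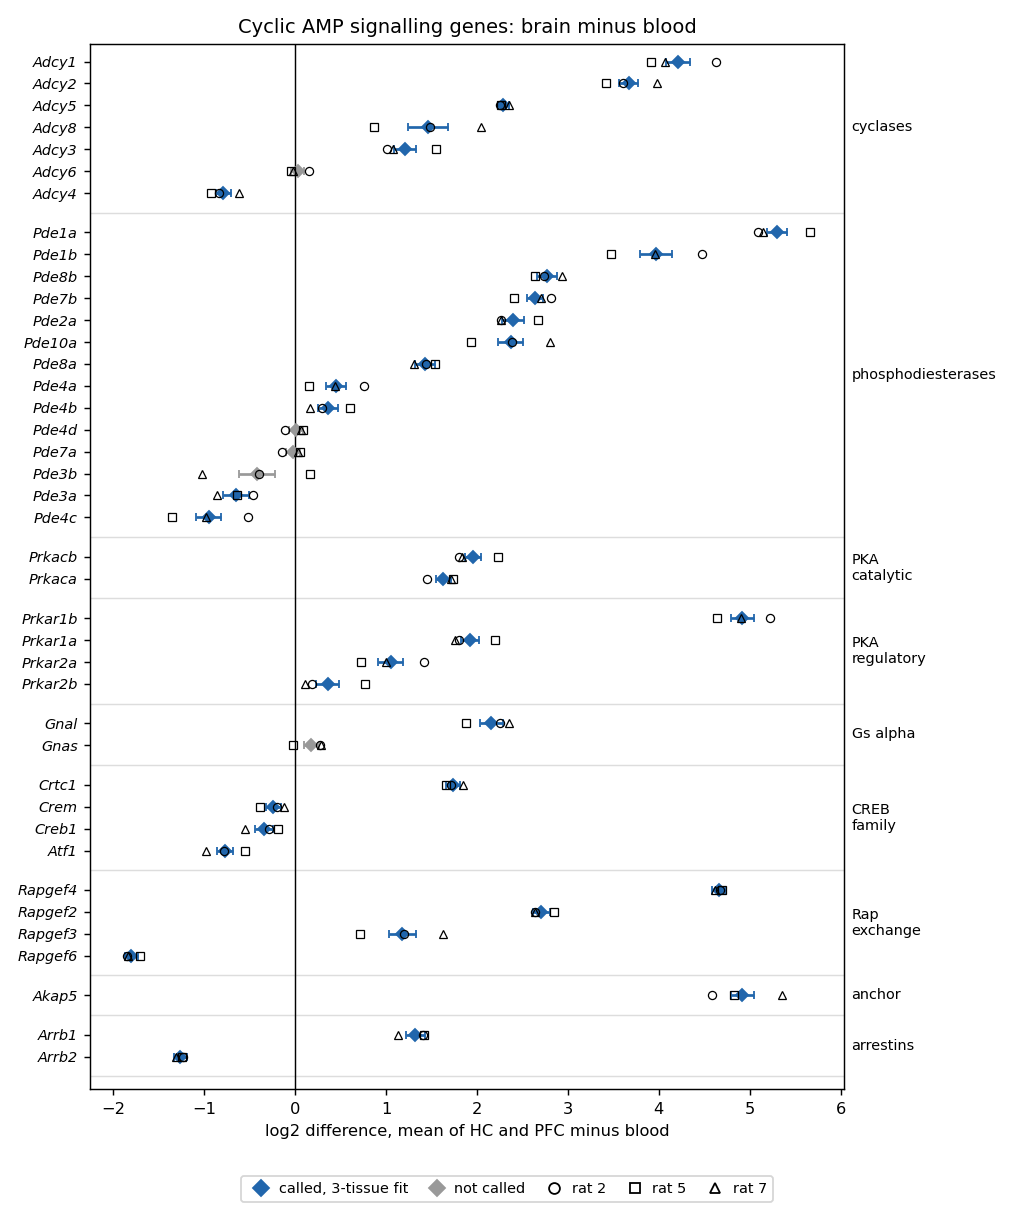
Log2 difference between brain (mean of HC and PFC) and blood for the 40 tested genes, grouped by role, with diamonds and bars for the mean difference and its standard error from the 3-tissue fit and open symbols for the 3 rats. Differences ran between -1.80 (Rapgef6) and 5.30 (Pde1a), and 27 genes were called higher and 8 lower.

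How the arrays are scaled against each other sets the small differences. Over all tested probe sets the median of brain minus blood was 0.22 in the deposited values, -0.09 when the arrays were quantile normalized again and -0.76 when each array was centred on 17 housekeeping genes, 15 of which were themselves higher in brain. Of the called genes 77.1% were higher in brain as deposited (27 higher and 8 lower), 66.7% after quantile normalization (24 and 12) and 58.3% with housekeeping scaling (21 and 15), where all called probe sets gave 56.6%, 46.7% and 27.8%. Under all 3 scalings 21 genes were called higher and 8 were called lower. The 6 that were called higher as deposited and not under all 3 were Adcy8, Pde4a, Pde4b, Prkar2a, Prkar2b and Rapgef3. The 8 lower under all 3 were Adcy4, Pde3a, Pde4c, Creb1, Crem, Atf1, Rapgef6 and Arrb2.

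**Figure D2:**
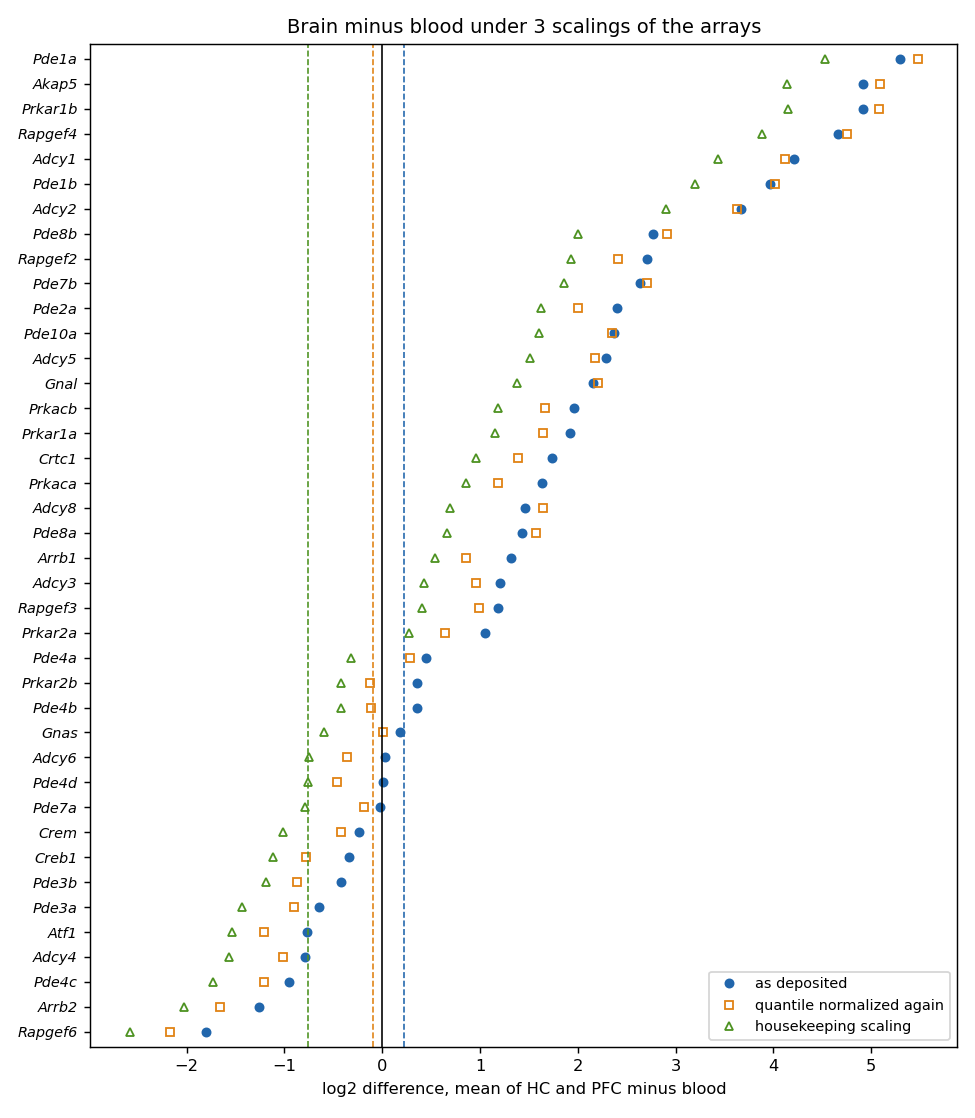
Log2 difference between brain and blood of the 40 tested genes under 3 scalings of the arrays, with dashed lines at the median over all tested probe sets under each (0.22 as deposited, -0.09 quantile normalized again, -0.76 with housekeeping scaling). Genes above Pde4a keep a positive difference under each scaling, and those below Pde4d a negative one.

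Of the 7 adenylyl cyclases measured, 5 were higher in brain than in blood and 1 was lower, with a median difference of 1.46. These counts were the same with weights by tissue. Of all tested probe sets 48.8% were higher and 37.4% lower as deposited. Adcy1, a cyclase stimulated by calcium and calmodulin that has been tied to synaptic plasticity, measured 10.73, 10.77 and 10.75 in HC and 10.39, 10.20 and 10.18 in PFC of rats 2, 5 and 7, against 5.93, 6.56 and 6.39 in blood. All brain arrays lay above all blood arrays, a difference of 4.21 (0.128; 8.04e-10). Adcy2, which G protein beta and gamma subunits can stimulate, measured 9.48, 9.44 and 9.44 in HC and 9.75, 9.72 and 9.89 in PFC, against 6.0, 6.16 and 5.68 in blood. This was a difference of 3.67 (0.105; 5.36e-10), again without overlap.

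Adcy4 went the other way. It measured 6.14, 6.17 and 6.12 in HC and 6.2, 6.17 and 6.15 in PFC, against 7.01, 7.09 and 6.76 in blood, a difference of -0.79 (0.0842; 8.53e-06). Among the other cyclases Adcy5, which calcium inhibits, differed by 2.29, the second calcium-stimulated form Adcy8 by 1.46 and Adcy3, the cyclase of olfactory neurons, by 1.21. Adcy8 had the widest spread of all the genes in blood (5.18, 5.88 and 4.61, SD 0.638), where it was not above background, so its difference is a limit of at least 1.15. With housekeeping scaling it was 0.69 with an adjusted p of 0.0571. Adcy6 differed by 0.03 (0.0707; 0.707), and this turned to -0.75 and -0.36 under housekeeping scaling and repeated quantile normalization, both past the test.

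Of the phosphodiesterases 14 were tested, and 9 were higher in brain, 2 lower and 3 not called, with a median difference of 0.94. Of all tested probe sets 48.8% were higher and 37.4% lower. With weights by tissue 8 of the 14 were higher and 2 lower, where 45.5% and 34.1% of all probe sets were. The calcium- and calmodulin-dependent Pde1a had the largest difference of all 40 genes. It measured 9.45, 9.55 and 9.41 in HC and 9.67, 9.72 and 9.73 in PFC, against 4.46, 3.98 and 4.42 in blood. Blood values were under background, so that the measured difference of 5.30 (0.11; 7.61e-11) stands for at least 4.05. Its paralogue Pde1b measured 9.37, 9.43 and 9.37 in HC and 9.55, 9.53 and 9.53 in PFC, against 4.99, 6.0 and 5.49 in blood, a difference of 3.97 (0.175; 1.07e-08), or at least 3.93. Pde1c stayed at or under 5.30 on all 9 arrays and was not tested. The 3 paralogues thus did not share a pattern.

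Several phosphodiesterases of other families were also higher in brain. These were Pde8b (2.77, at least 2.21), Pde7b (2.64, at least 2.49) and Pde8a (1.43, at least 1.37), which are selective for cyclic AMP, as well as Pde2a (2.40), which cyclic GMP stimulates, and Pde10a (2.37), which is known for its high level in the striatum. The adjusted p of these 5 lay between 1.51e-09 and 8.74e-07. With housekeeping scaling the differences were 2.0 for Pde8b, 1.86 for Pde7b and 0.66 for Pde8a, which is under the limits given here. Pde2a was then at 1.62 and Pde10a at 1.60, and all 5 were still called.

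The 4 genes of the Pde4 family, the rolipram-sensitive enzymes specific for cyclic AMP, lay close to the level in blood or below it. Pde4c measured 6.26, 6.07 and 5.95 in HC and 6.48, 6.30 and 6.39 in PFC, against 6.89, 7.54 and 7.15 in blood, a difference of -0.95 (0.135; 7.96e-05) without overlap. Pde4d, at 0.01 (0.0793; 0.867), was not called. Pde4a and Pde4b were called higher by only 0.45 (adjusted p 0.00339) and 0.36 (0.0124), which turned to -0.32 and -0.42 with housekeeping scaling. With weights by tissue the adjusted p of Pde4b was 0.0651, and without rat 5 it was 0.0517 at a difference of 0.24.

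The cyclic GMP-inhibited Pde3 enzymes were not higher in brain. Pde3a, known from platelets and the heart, measured 6.67, 6.72 and 7.00 in HC and 5.94, 5.86 and 6.09 in PFC, against 6.77, 6.93 and 7.40 in blood. The mean difference of -0.65 (0.141; 0.00145) came mainly from PFC, and the HC and blood arrays overlapped. Pde3b was not called at -0.42 (0.197; 0.0692). Its blood values of 8.09, 7.52 and 8.67 were lowest in rat 5, and without the blood array of rat 5 the difference was -0.71 with an adjusted p of 0.000963. The summed level of 10 T cell markers was also lowest in that blood array, at 12.26 against 12.81 in rat 2 and 12.95 in rat 7, and its part in the Pde3b values was not tested. Pde7a differed by -0.02 (0.0787; 0.827).

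All 6 subunits of protein kinase A were higher in brain as deposited, by widely different amounts, where 48.8% of all tested probe sets were higher. All but the type II regulatory subunits Prkar2a and Prkar2b were so under each scaling. The neuronal regulatory subunit RI beta, Prkar1b, had the same value of 10.09 on all 3 HC arrays and 10.47, 10.61 and 10.64 in PFC, against 5.06, 5.70 and 5.46 in blood. The difference of 4.92 (0.126; 2.69e-10) stands for at least 4.80, since the blood mean was not above background. The other type I subunit, the widely expressed Prkar1a, differed by 1.92 (0.0993; 3.46e-08) and was present in blood on every array at 8.97 to 9.40.

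Of the type II regulatory subunits, Prkar2a differed by 1.05 (0.134; 3.68e-05) and by 0.27 (adjusted p 0.221) with housekeeping scaling. Prkar2b, the RII beta form abundant in brain and fat, differed by 0.36 (0.125; 0.0212), a call that was lost with weights by tissue (adjusted p 0.0708) and without rat 5 (0.161, at a difference of 0.15), and its sign turned to -0.42 and -0.12 under the other scalings. Its blood values overlapped those in HC.

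Both catalytic subunits were higher in brain. Prkacb (C beta) measured 10.94, 10.97 and 10.91 in HC and 11.54, 11.64 and 11.58 in PFC, against 9.44, 9.08 and 9.40 in blood, a difference of 1.96 (0.0906; 1.52e-08). A second, dimmer Prkacb probe set differed by 0.01 (0.148; 0.955), so the 2 probe sets of this gene disagreed. Prkaca (C alpha) differed by 1.63 (0.0818; 2.76e-08). The anchoring protein Akap5, which holds protein kinase A at the postsynaptic membrane, measured 8.23, 8.22 and 8.35 in HC and 8.48, 8.59 and 8.65 in PFC, against 3.78, 3.58 and 3.15 in blood. The measured difference was 4.92 (0.125; 2.63e-10), and against the background level in blood it was at least 2.89.

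**Figure D3:**
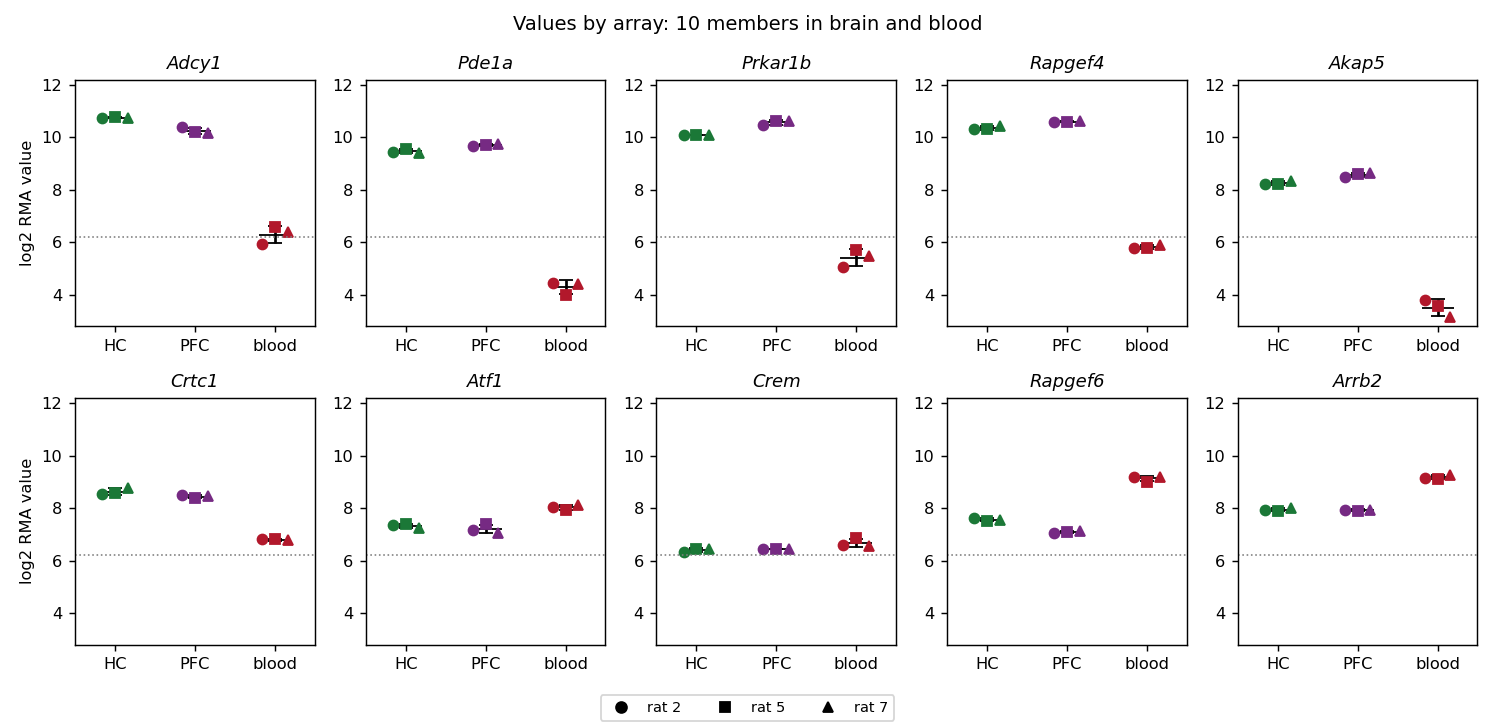
Log2 RMA values of 10 genes on the 9 arrays (symbols for rats 2, 5 and 7, with the mean and SD of 3 arrays in black) in HC, PFC and blood, and the presence cut-off of 6.2 as a dotted line. Measured blood values lie at least 3 log2 units below all brain arrays for the 5 genes of the upper row, of which Pde1a, Prkar1b and Akap5 were not above background in blood, and they lie above all brain arrays for Atf1, Crem, Rapgef6 and Arrb2.

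The stimulatory G protein alpha subunits differed from each other. Gnal, the olfactory form that also couples dopamine and adenosine receptors in the striatum, measured 7.78, 7.92 and 7.89 in HC and 7.43, 7.53 and 7.83 in PFC, against 5.36, 5.85 and 5.51 in blood. The difference was 2.16 (0.124; 7.88e-08). Gnas, the subunit used in most cells, was at 11.58 to 11.64 on all brain arrays and at 11.32, 11.60 and 11.33 in blood, a difference of 0.18 (0.081; 0.0566) that missed the test. Without the blood array of rat 5, which reached the brain values, it was 0.27 with an adjusted p of 0.00108, and with housekeeping scaling it was -0.59 (0.00573). A second Gnas probe set, under the presence cut-off in every tissue, averaged 4.90 in HC and 5.08 in PFC, against 5.96 in blood.

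The CREB family was the role in which lower values in brain prevailed. Of the 4 genes 3 were lower and 1 was higher, where 37.4% of all tested probe sets were lower and 48.8% higher. With weights by tissue 2 of the 4 were lower and 1 was higher. Atf1 measured 7.38, 7.39 and 7.25 in HC and 7.18, 7.39 and 7.06 in PFC, against 8.05, 7.94 and 8.13 in blood, a difference of -0.77 (0.0909; 2.01e-05) without overlap. Creb1 measured 7.39, 7.34 and 7.41 in HC and 7.29, 7.41 and 7.41 in PFC, against 7.63, 7.57 and 7.96 in blood, a difference of -0.34 (0.0947; 0.00635). Crem, whose gene also encodes inducible repressors of cyclic AMP targets, was lower by the smallest amount of the called genes, at -0.24 (0.0833; 0.0223). This call was lost with weights by tissue (adjusted p 0.0999) and without the HC array of rat 2 (0.0545), rat 2 (0.0701) or rat 5 (0.104, at a difference of -0.16). The coactivator Crtc1, which moves to the nucleus when it is dephosphorylated, stood apart. It measured 8.55, 8.59 and 8.78 in HC and 8.50, 8.38 and 8.45 in PFC, against 6.82, 6.83 and 6.77 in blood, a difference of 1.74 (0.0762; 1.01e-08).

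CREB binds the cyclic AMP response element, TGACGTCA, and shorter sites TGACG, or CGTCA when read on the other strand. Both were searched in RefSeq windows (GRCr8) of 300 bases, 250 before to 50 after an annotated start. Such windows were given for 30 of the 43 genes, 46 in all. The whole element lay in 2 of the 46, both of Crem, and in 1.83% of 33469 windows of all genes. A short site lay in 15 windows of 11 genes, or 32.6%, against 21.2% of all windows. Printed here are the 250 bases before the start for both Crem windows with the whole element, and for Prkaca, as an example of short sites only, with the matched letters in capitals. The elements begin 56 and 35 bases before the start in Crem, and the short sites 193 and 79 bases before it in Prkaca. The second Crem window holds a further element 40 bases after the start. A match is a run of letters and was not tested as a binding site.
Crem, chr17:58984547-58984796, plus strand: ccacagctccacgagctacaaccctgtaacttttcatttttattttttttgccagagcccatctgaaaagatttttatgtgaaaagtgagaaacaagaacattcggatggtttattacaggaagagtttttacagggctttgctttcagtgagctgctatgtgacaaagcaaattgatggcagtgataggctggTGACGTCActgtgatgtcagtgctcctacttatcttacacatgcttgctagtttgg
Crem, chr17:58985240-58985489, plus strand: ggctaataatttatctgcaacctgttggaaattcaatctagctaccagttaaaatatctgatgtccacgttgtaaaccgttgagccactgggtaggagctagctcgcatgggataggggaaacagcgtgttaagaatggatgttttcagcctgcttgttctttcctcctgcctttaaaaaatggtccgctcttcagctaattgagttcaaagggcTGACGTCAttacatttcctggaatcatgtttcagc
Prkaca, chr19:41083190-41083439, minus strand: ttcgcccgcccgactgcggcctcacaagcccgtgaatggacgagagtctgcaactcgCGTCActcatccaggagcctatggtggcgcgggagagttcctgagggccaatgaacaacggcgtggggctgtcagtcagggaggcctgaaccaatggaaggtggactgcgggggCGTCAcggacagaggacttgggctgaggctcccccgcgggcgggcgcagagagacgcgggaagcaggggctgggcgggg

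The Rap exchange factors lay far apart. Rapgef4, or Epac2, which cyclic AMP activates directly, measured 10.31, 10.31 and 10.44 in HC and 10.60, 10.58 and 10.62 in PFC, against 5.78, 5.76 and 5.91 in blood. Its difference of 4.66 (0.0716; 1.94e-11) had the smallest adjusted p of the 40 genes. Rapgef2, an exchange factor with a PDZ domain, measured 9.52, 9.39 and 9.49 in HC and 9.39, 9.55 and 9.64 in PFC, against 6.81, 6.62 and 6.92 in blood, a difference of 2.71 (0.0918; 1.69e-09). Its close relative Rapgef6 was the gene furthest below blood, at 7.63, 7.53 and 7.55 in HC and 7.07, 7.10 and 7.15 in PFC, against 9.20, 9.02 and 9.20 in blood. This was a difference of -1.80 (0.0728; 5.74e-09). Rapgef3, or Epac1, differed by 1.18 (0.149; 3.32e-05) and by 0.41 (adjusted p 0.126) with housekeeping scaling.

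The beta-arrestins, which uncouple and internalize receptors, split in opposite directions. Arrb1 measured 9.41, 9.42 and 9.60 in HC and 9.45, 9.35 and 9.43 in PFC, against 8.02, 7.97 and 8.39 in blood, a difference of 1.32 (0.104; 8.58e-07). Arrb2 measured 7.93, 7.88 and 8.00 in HC and 7.92, 7.90 and 7.95 in PFC, against 9.16, 9.13 and 9.28 in blood, a difference of -1.26 (0.0697; 5.81e-08). Neither pair of groups overlapped, and both directions held under all 3 scalings.

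Between HC and PFC the differences were far smaller. Of the 40 genes 3 were higher in HC (Pde3a, Pde8a and Rapgef6) and 3 lower (Prkar2b, Prkacb and Pde8b), or 7.5% each, where 4.51% of all probe sets were higher and 4.66% lower. The median difference was -0.09 and the range -1.02 to 0.83. In the fit on the 6 brain arrays alone, which leaves out the wide spread of blood, 4 genes were higher in HC (10%, against 12.7% of all probe sets) and 13 lower (32.5%, against 13.1%). The fit weighted by tissue also gave 4 and 13, where 13.5% and 13.7% of all probe sets were called, and 12 of the lower genes were the same in both. All HC arrays lay below all PFC arrays for 18 genes (45%, against 21% of all probe sets) and above for 5 (12.5%, against 20.9%). Leaving out the blood array of rat 5 alone moved the pooled counts to 4 higher and 10 lower. They were 4 and 5 without the blood array of rat 2, 3 and 5 without that of rat 7, 1 and 2 without rat 5 or its PFC array, and 1 and 1 without rat 2 or rat 7. The counts over all probe sets, 761 higher and 786 lower in the full fit, moved as well. Without the blood array of rat 5 they were 1303 and 1329, without that of rat 2 949 and 994, and without that of rat 7 978 and 1033. They were 442 and 486 without the PFC array of rat 5. Without rats 2, 5 or 7 they were 344 and 372, 406 and 427, and 318 and 338. Each of these fits tested 16826 to 16971 probe sets.

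The cell makeup of the 2 regions differed at the same time. Of 7 oligodendrocyte markers 6 were higher in HC, and their summed level was 12.93 to 13.21 in HC and 12 to 12.56 in PFC. Summed neuron markers were at 14.62 to 14.70 in HC and 14.75 to 14.82 in PFC, with 1 of 10 lower in HC. Of 9 tested hippocampal field markers 8 were higher in HC. Red cell markers were lower in HC, 4 of 9, with a summed level of 9.68 to 10.10 in HC and 10.51 to 11.22 in PFC, and 15.63 to 15.76 in blood. Of 8 astrocyte markers 1 was higher in HC, Gfap (1.55), and their summed level was 14.04 to 14.10 in HC and 13.78 to 13.85 in PFC. Of 7 tested markers of striatal neurons 1 was lower, Penk (-0.93), at a summed level of 9.66 to 9.74 in HC and 9.98 to 10.13 in PFC. Of 8 monocyte markers 1 was lower, Lyz2 (-1.01), at 9.53 to 9.59 in HC and 9.56 to 9.79 in PFC. Of 4 tested choroid plexus markers only Ttr was called, with a mean of 10.42 in HC and 4.35 in PFC, where it was not above background, and Folr1 (0.24), F5 (0.17) and Aqp1 (-0.08) were not. The T cell marker Cd3e (2.10) was also called higher in HC, and the endothelial marker Esam (-0.32) and the neocortical marker Cux1 (-0.74) lower. The part of these in the differences between the regions was not tested.

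**Figure D4:**
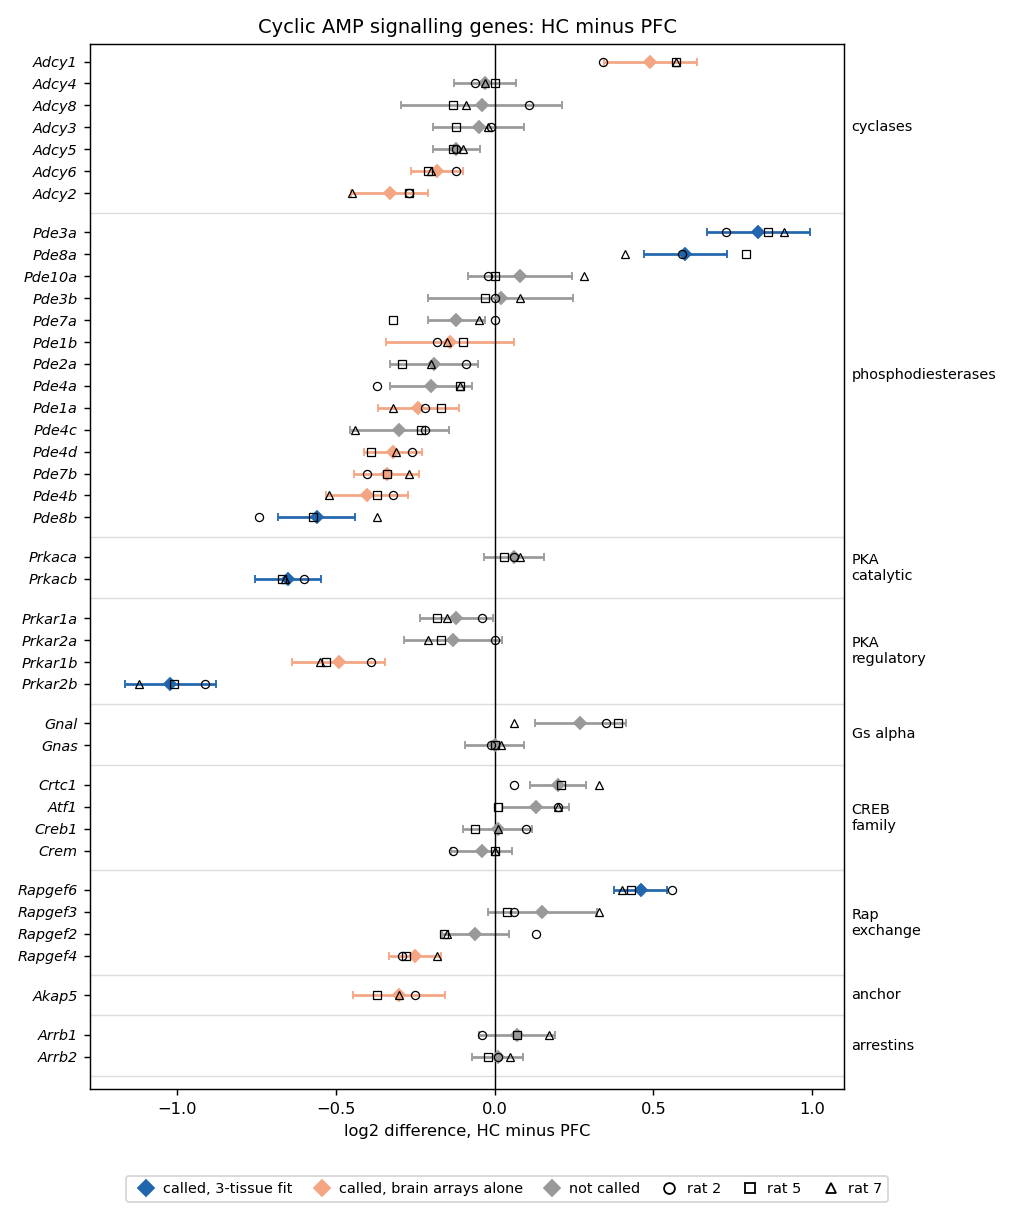
Log2 difference between HC and PFC for the 40 tested genes, grouped by role, with diamonds and bars for the mean difference and its standard error from the 3-tissue fit and open symbols for the 3 rats. The 6 genes called in that fit are blue, and a further 11 genes that were called from the brain arrays alone and not in that fit are orange.

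Kinase subunits showed the widest difference. Prkar2b measured 8.05, 8.03 and 7.83 in HC and 8.96, 9.04 and 8.96 in PFC, a difference of -1.02 (0.144; 0.0016) without overlap. Blood averaged 8.12 and thus lay below PFC. With the brain arrays alone the adjusted p was 0.000121, and without rat 7 in the pooled fit it was 0.0573 at a difference of -0.96. Prkacb measured 10.94, 10.97 and 10.91 in HC and 11.54, 11.64 and 11.58 in PFC, a difference of -0.65 (0.105; 0.00365), and it was -0.67 without rat 2 (adjusted p 0.063) and -0.64 without rat 7 (0.089). Over the mean of its 2 probe sets it was -0.46 (adjusted p 0.0694). All 4 regulatory subunits had a negative mean difference, and Prkar1b at -0.49 was called with the brain arrays alone (adjusted p 0.00107) and not in the pooled fit (0.0732). Prkaca differed by 0.06 (0.0945; 0.87).

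Phosphodiesterases differed in both directions. Pde8b measured 7.44, 7.48 and 7.49 in HC and 8.18, 8.04 and 7.86 in PFC, a difference of -0.56 (0.122; 0.0186). Its paralogue Pde8a went the opposite way, at 7.37, 7.27 and 6.98 in HC and 6.78, 6.48 and 6.57 in PFC, a difference of 0.60 (0.131; 0.0182). HC and PFC did not overlap for either gene.

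Pde3a, listed above with its values, was higher in HC by 0.83 (0.162; 0.0101), with every HC array above every PFC array. In the pooled fit these 3 calls were lost when some single arrays or rats were left out, while the differences kept their sign and much of their size. Pde8a was not called without any 1 of the rats, the HC arrays of rats 2 and 5 or the PFC arrays of rats 5 and 7 (adjusted p 0.0768 to 0.177), with differences of 0.50 to 0.69. Pde8b was not called without any 1 HC array, the PFC arrays of rats 2 and 5 or rats 2 and 5 themselves (0.0653 to 0.243), with differences of -0.57 to -0.47. Pde3a was not called without the HC array of rat 7, the PFC array of rat 5, rat 2 or rat 5 (0.0515 to 0.132), with differences of 0.73 to 0.89. With all 6 brain arrays alone the adjusted p was 0.0115 for Pde8a, 0.00334 for Pde8b and 0.00147 for Pde3a. Pde4b (-0.40), Pde7b (-0.34), Pde4d (-0.32), Pde1a (-0.24) and Pde1b (-0.14) were called lower in HC from the brain arrays alone, with adjusted p between 0.00232 and 0.0452. None of these 5 was called in the pooled fit.

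**Figure D5:**
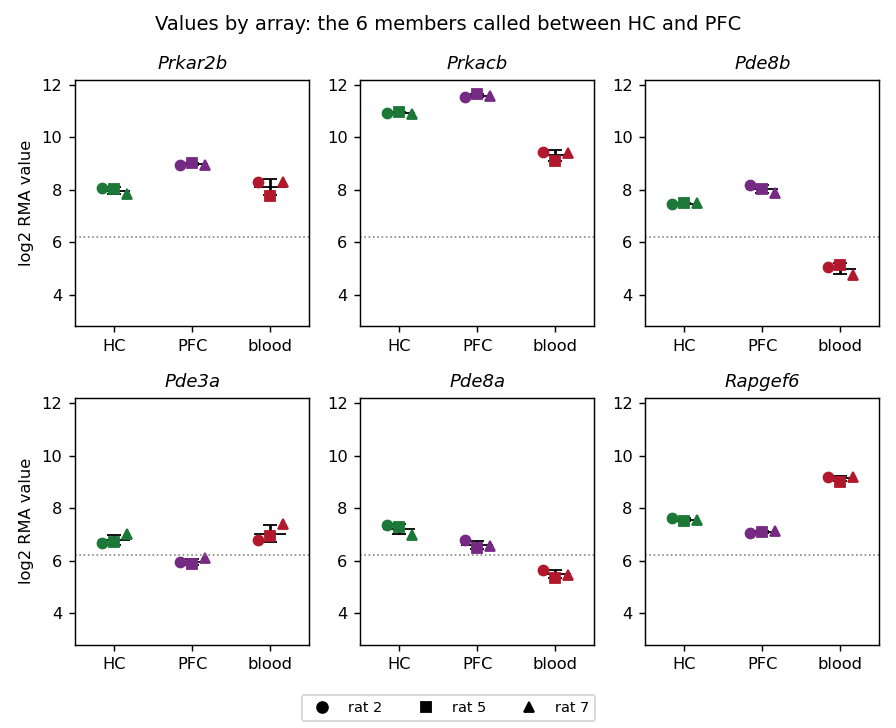
Log2 RMA values on the 9 arrays (symbols for rats 2, 5 and 7, with the mean and SD of 3 arrays in black) of the 6 genes called between HC and PFC, with the presence cut-off of 6.2 as a dotted line. HC and PFC arrays do not overlap in any of the 6, and the values of blood lie above both regions for Rapgef6 and below both for Prkacb, Pde8b and Pde8a.

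Rapgef6 was higher in HC by 0.46 (0.0841; 0.00691), and the difference was 0.41 without rat 2 (adjusted p 0.129) and 0.50 without rat 7 (0.0898). With housekeeping scaling the calls of 3 genes were lost, at differences of 0.36 for Rapgef6 (0.139), 0.49 for Pde8a (0.151) and -0.66 for Pde8b (0.135). Rapgef4 (-0.25) and Akap5 (-0.30) were lower in HC with the brain arrays alone, at adjusted p 0.014 and 0.0126, and were not called in the pooled fit. Among the cyclases Adcy1 was higher in HC by 0.49, with every HC array above every PFC array and an adjusted p of 0.00198 from the brain arrays alone, against 0.0736 in the pooled fit. Adcy2 (-0.33) and Adcy6 (-0.18) were lower with the brain arrays alone (0.00617 and 0.0288). No G protein, CREB family or arrestin gene was called between the regions in the pooled, weighted or brain-only fit, the nearest being Crtc1 (0.20, adjusted p 0.0507) and Gnal (0.27, 0.0574) with weights by tissue. Gnas differed by 0.00 (0.0935; 0.992) and Creb1 by 0.01 (0.109; 0.98).

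Further genes tied to the pathway, or only named like its members, were taken from lists by role. Unless stated otherwise, their counts and differences are as deposited, from the pooled fit. The counts stand against the 48.8% of all tested probe sets that were higher in brain than in blood and the 37.4% that were lower. With housekeeping scaling 4505 of 18819 tested probe sets were higher in brain and 11729 lower. Counts under that scaling stand against these. Of 18 tested genes listed as receptors coupled to stimulatory G proteins, among them the receptor partner Ramp1, 7 were higher in brain and 7 lower. These shares (38.9% each) were not far from those of all probe sets. With housekeeping scaling 1 of 20 was higher (5.0%) and 16 were lower (80.0%). The widest were Adcyap1r1, the receptor of the peptide PACAP, at 4.03, and the histamine receptor Hrh2 at 1.14 on the higher side, and the prostanoid receptors Ptger4 at -2.56 and Ptgir at -1.97 on the lower. With housekeeping scaling Hrh2 was at 0.36 (adjusted p 0.139). Between the regions 3 were higher and 3 lower in HC (16.7% each, against 4.51% and 4.66% of all probe sets), among them the serotonin receptor Htr4 (1.85) and Adcyap1r1 (0.95), and Ramp1 (-1.03), a partner of the calcitonin receptor-like receptor, and the adrenergic receptor Adrb1 (-0.86). The third of the lower ones, Vipr1 (-0.35, adjusted p 0.0469), was not called with the rat as a fixed block (0.096) or under the other scalings. The brain arrays alone gave 3 higher (16.7%, against 12.7% of all probe sets) and 4 lower (22.2%, against 13.1%).

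Inhibitory G protein alpha subunits, which hold cyclases back, divided by member. Of 5 tested, Gnao1 (5.39), Gnai1 (4.66) and Gnaz (1.25) were higher in brain, and Gnai2 (-0.75) and Gnai3 (-0.45) were lower. Between HC and PFC the brain arrays alone gave Gnai1 as lower (-0.30, adjusted p 0.00623) and Gnai2 as higher (0.22, 0.0459) in HC, and the pooled fit called neither. Of 5 other genes named as phosphodiesterases or their subunits 3 were higher in brain and 2 lower. Pde6d (1.61) and Pde9a (0.96) stood against Pde5a (-1.53) and Pde6h (-1.19). With housekeeping scaling 1 of the 5 was higher and 2 were lower. Pde9a was then at 0.19 (adjusted p 0.179), and Pde11a, at 0.84 as deposited, was at 0.06 (0.796). The brain arrays alone gave 2 of these 5 as lower in HC (40%, against 13.1% of all probe sets). Of 5 receptor kinases 2 were higher and 2 lower, with Grk3 (1.86) and Grk4 (0.48) against Grk6 (-1.71) and Grk5 (-0.34), the last of which had an adjusted p of 0.118 with weights by tissue. With housekeeping scaling 1 of 5 tested was higher and 4 were lower, and Grk4 was not among those tested. The brain arrays alone gave 3 of the 5 receptor kinases as lower in HC than in PFC (60%, against 13.1% of all probe sets). The pooled fit called none of them between the regions.

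Of 14 other anchoring proteins of protein kinase A, 10 (71.4%) were higher in brain and 2 (14.3%) lower, and with housekeeping scaling 8 were higher and 4 lower. Map2, the dendritic microtubule protein and itself a neuron marker, differed by 6.52 and Akap6 by 4.35, against Akap13 at -1.85 and Ezr at -1.13. In the pooled fit Akap13 was also the 1 anchor higher in HC (0.82), with an adjusted p of 0.0541 under housekeeping scaling. The brain arrays alone gave 4 anchors higher in HC (28.6%, against 12.7% of all probe sets) and 5 lower (35.7%, against 13.1%). With weights by tissue 2 were higher and 4 lower. Of 8 genes listed with inhibitors and substrates of the kinase 7 (87.5%) were higher in brain as deposited and 4 with housekeeping scaling. The widest were Pcp4 (3.71), a calmodulin-binding protein counted in this list, and Arpp21 (2.96). Ppp1r1b (0.31, adjusted p 0.109) was not called. In HC 3 of the 8 were lower than in PFC (37.5%, against 4.66% of all probe sets), led by Arpp19 (-1.0) and Arpp21 (-0.90). The third, Pkig (-0.43), had an adjusted p of 0.0355 and of 0.0588 with the rat as a fixed block. The brain arrays alone gave 4 as lower (50.0%, against 13.1%) and weights by tissue 5 (62.5%, against 13.7%). In the comparison with blood, Arpp19 (0.59) turned to -0.18 with housekeeping scaling.

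Downstream, 8 further CREB family members and coactivators gave 4 higher (50.0%) and 3 lower (37.5%), about the shares of all probe sets, with Crebl2 (1.64) and Creb3 (1.61) against Crtc2 (-0.55) and the kinase Sik1 (-0.51), and with housekeeping scaling 3 of 10 were higher and 6 lower. Atf2 was lower in HC (-0.30, adjusted p 0.0368), a call that was lost with the rat as a fixed block (0.0904) and with housekeeping scaling (-0.40, 0.153). The brain arrays alone gave 2 of these 8 genes as lower in HC (25%, against 13.1% of all probe sets). Of 13 Rap GTPases and regulators 9 (69.2%) were higher and 3 (23.1%) lower, and with housekeeping scaling 6 and 4. Rapgefl1 (4.23) and Rapgef5 (4.03) stood against the GTPase-activating protein Sipa1 (-2.27) and Rap1b (-1.63), the Rap form abundant in platelets. Between the regions Sipa1l3 was higher in HC (1.15) and Rap1gap2 lower (-0.56) in the pooled fit. The brain arrays alone gave 5 of the 13 Rap genes as higher in HC (38.5%, against 12.7% of all probe sets). They gave 2 as lower (15.4%, against 13.1%). Among 4 cyclic nucleotide-gated channels Hcn2 (1.37) and Hcn3 (0.44) were higher and Hcn4 (-0.76) and Cngb1 (-0.63) lower. With housekeeping scaling Hcn3 turned to -0.33, and of 5 genes of that list then tested 1 was higher and 4 were lower. Where blood was not above background these differences are limits, of at least 5.99 for Map2, 5.35 for Gnao1, 4.42 for Gnai1, 3.76 for Rapgef5, 3.64 for Rapgefl1 and 3.59 for Adcyap1r1. Of the cyclic AMP exporters Abcc5 (1.52) was higher in brain and Abcc4 (-0.77), known from platelets, lower.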

How the data were processed

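RNA of HC, PFC and blood of 3 rats was measured on 9 arrays. The authors quantile normalized the intensities, summarized them by RMA and deposited values taken here as log2 (range 1.53 to 14.01; the base is not named). Their detection p-values were not used here. Tissue and rat came from the labels. Of 29214 probe sets with values, 15310 carry exactly 1 symbol in the array annotation, and 15279 of these matched RefSeq genes of GRCr8. Only such probe sets were named.

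Probe sets with a mean above 6.2 in at least 1 tissue (16884) were fitted with limma 3.58.1 in R 4.3.3 (statmod 1.5.0), tissue as a factor with 3 levels and no block, moderated by eBayes, with p-values adjusted by Benjamini-Hochberg over all of them and called at an adjusted p under 0.05. The procedure was run on simulated data with planted differences, with equal spread in the tissues and with the spread of each tissue. A minimum recovery and a limit on false calls were required only under equal spread, which these data do not have. The precision is limited by 3 arrays per tissue. Figures used matplotlib 3.10.9 in Python 3.11.15. A summed level is the log2 of the sum of the linear values of a list. The background level raised lower values for the limits.

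The same number marks the same animal. The deviations from the tissue means of same-numbered arrays correlated at 0.254, 0.137 and 0.287 between HC and PFC, 0.0323, 0.0460 and 0.0264 between HC and blood, and -0.0351, -0.0792 and 0.0518 between PFC and blood, for rats 2, 5 and 7.

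The genes, the pathway and marker lists and the tests were chosen with earlier results of these data known. All genes of the list are accounted for. Every array is given for, per role, the 2 genes with the widest called difference in each direction and comparison, and up to 2 genes per direction are named of each pathway list. The alternatives covered scaling, filter, cut-off, probe set choice, block, weights, variance model, the arrays in the fit, a minimum difference, and each array and rat left out. The lists for astrocytes (8 of 8 higher in brain), endothelial cells (5 of 6 higher), microglia (4 of 7 higher, 2 lower), striatal neurons (2 of 7 higher, 4 lower), neocortical layers (2 of 3 higher) and choroid plexus (1 of 4 higher, 3 lower) were also measured.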

Additional observations from a re-analysis of the deposited data

How the results depend on the processing

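The count of genes lower in brain than in blood (8) was 15 with housekeeping scaling and 2 with a minimum log2 difference of 1. It was 4 with the filter at 7.2, under which 33 genes were tested. Adcy4, Pde3a, Pde4c and Crem averaged under 7.2 in every tissue and were thus not tested there. The counts of genes higher and lower in HC than in PFC (3 and 3) were 1 higher with housekeeping scaling, and 0 higher and 1 lower with a minimum of 1. Lower in HC were 13 genes with the brain arrays alone, 13 with weights by tissue and 7 with values raised to background. The count present in blood (27) was 15 at a cut-off of 7.2. With single arrays or rats left out, 26 to 28 genes were higher and 7 to 9 lower in brain, 1 to 4 higher and 1 to 10 lower in HC, and 38 to 38 were present in HC, 38 to 38 in PFC and 25 to 27 in blood. Over all probe sets, 318 to 1303 were higher and 338 to 1329 lower in HC in these fits.

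The direction of brain minus blood turned with housekeeping scaling for Adcy6 (-0.75), Pde4a (-0.32), Pde4b (-0.42), Pde4d (-0.76), Prkar2b (-0.42) and Gnas (-0.59), with repeated quantile normalization for Adcy6 (-0.36), Pde4b (-0.11), Pde4d (-0.46) and Prkar2b (-0.12), and over the mean of all its probe sets for Gnas (-0.39). The cause was not tested.

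With the rat as a replicate block, by a fixed or a random factor, 27 genes were higher and 8 lower in brain, and 3 higher and 3 lower in HC. The same genes of the 40 were called. Among the further listed genes the fixed block ended the calls of Vipr1 (adjusted p 0.0787) and Ep300 (0.059) between brain and blood and of Vipr1 (0.096), Pkig (0.0588) and Atf2 (0.0904) between HC and PFC, and it added Grk5 as lower in HC (0.0454). The random block ended none. Signal over background limits the 9 genes that were not above it in blood, and the wide spread of blood limits every comparison with it.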
